A study of Mus musculus with 2 samples.

Results

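The Tnn- and Ibsp-high, preosteoblast-like cells of the mouse periosteum were examined in 2 single-cell libraries of Ai9-labelled cells sorted from femurs and tibias at 8 weeks of age. One library came from Prx1 Cre; Ai9/+ mice (the control library) and one from Prx1 Cre; Ai9/+; Piezo1 fl/fl mice (the Piezo1 fl/fl library), so both carried the Prx1 Cre driver and the Ai9 reporter. Prx1 (Prrx1) directs Cre to the limb mesenchyme, and the sort was for cells of that lineage, but 7.56% and 8.91% of the filtered cells below were blood-like and 4.09% and 2.88% endothelial-like by their markers. The number of animals behind each library is not given in the sources used here, and with 1 library per genotype no difference between the genotypes has a replicate check. Cells were chosen by 4 measured criteria: Tnn at 15 or more UMIs per 10000 UMIs of the cell (CP10K), a UMI of Lrrc15 or Prss35, Ibsp at 10 or more CP10K, and a UMI of fewer than 3 of the 6 late genes Dmp1, Phex, Ifitm5, Car3, Slc13a5 and Bmp8a. A UMI, or unique molecular identifier, marks 1 captured RNA molecule. These criteria selected 276 of 4455 filtered cells (1000 to 5000 genes and mitochondrial UMIs below 25%) in the control library and 190 of 5141 in the Piezo1 fl/fl library, 466 of 9596 in all. Because the selection used these genes, their levels in the selected cells are given as a description only.

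Bone-forming cells of the outer bone surface arise from mesenchymal progenitors in the inner, cambium layer of the periosteum. A progenitor that enters the lineage comes under the transcription factors Runx2 and then Sp7 (osterix), makes alkaline phosphatase (Alpl) and type I collagen, adds the acidic, mineral-binding glycoproteins bone sialoprotein (Ibsp) and osteopontin (Spp1), and only late produces osteocalcin (Bglap) and the osteocyte proteins Dmp1 and Phex. Tnn, tenascin-W, is an extracellular matrix glycoprotein found around developing bone, and Lrrc15 is a membrane protein of collagen-producing stromal cells.

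The libraries held 6118 and 7469 cell barcodes with 28030299 and 32337308 UMIs, and 50 barcodes occurred in both, of which 3 control and 2 Piezo1 fl/fl cells were among those selected. The selected cells had a median of 6635 and 6242 UMIs and of 2140.5 and 2145 genes, more than the filtered cells as a whole (4825 and 4619 UMIs). Piezo1, the mechanosensitive channel named in the genotype, gave 12 UMIs (5.47 CPM, that is, per 1000000 UMIs) in the selected control cells and 3 UMIs (2.14 CPM) in the selected Piezo1 fl/fl cells, a log2 ratio of -1.19 with a 95% interval of -3.82 to 0.54. The reads come from the 3' end of each RNA and the floxed exons are not given in the sources used here, so these few counts do not check the deletion. All intervals below are exact, for counts of UMIs or of cells, and cover counting error only.

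Tnn ranged from 15.2 to 179 CP10K over the selected control cells, with a median of 72.6, and from 15.8 to 165 with a median of 48.4 in the Piezo1 fl/fl cells. Ibsp was lower at the median in the control cells, 37.5 CP10K with a range of 10.2 to 347, than in the Piezo1 fl/fl cells, 71.4 CP10K with a range of 10.1 to 596. A UMI of Lrrc15 was found in 240 of the 276 control and 169 of the 190 Piezo1 fl/fl cells, and a UMI of Prss35, a secreted serine protease homologue, in 218 and 135. Few cells carried late genes. In the control library 237 cells had a UMI of 0 of the 6, 32 of 1 and 7 of 2, and in the Piezo1 fl/fl library the numbers were 171, 16 and 3. Around the Ibsp limit, the 22 control cells at 10 to below 12 CP10K had Tnn at 8761 and Sp7 at 257 CPM, and the 16 cells at 8 to below 10 CP10K, just outside, had them at 8224 and 272. Among cells that met the other criteria, only 5 in each library lay just outside the Tnn limit, at 10 to below 15 CP10K, and 9 in each lay just inside, at 15 to below 20. The 9 just inside were unlike the selected cells as a whole. Their Spp1 was 8792 and 11931 CPM against 1631 and 4164, and their Postn 3158 and 4908 against 11184 and 9761. The plot of Tnn against Ibsp shows that Ibsp ran on without a break across the limit that separates the selected cells from the Tnn-high cells with low Ibsp.

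**Figure D1:**
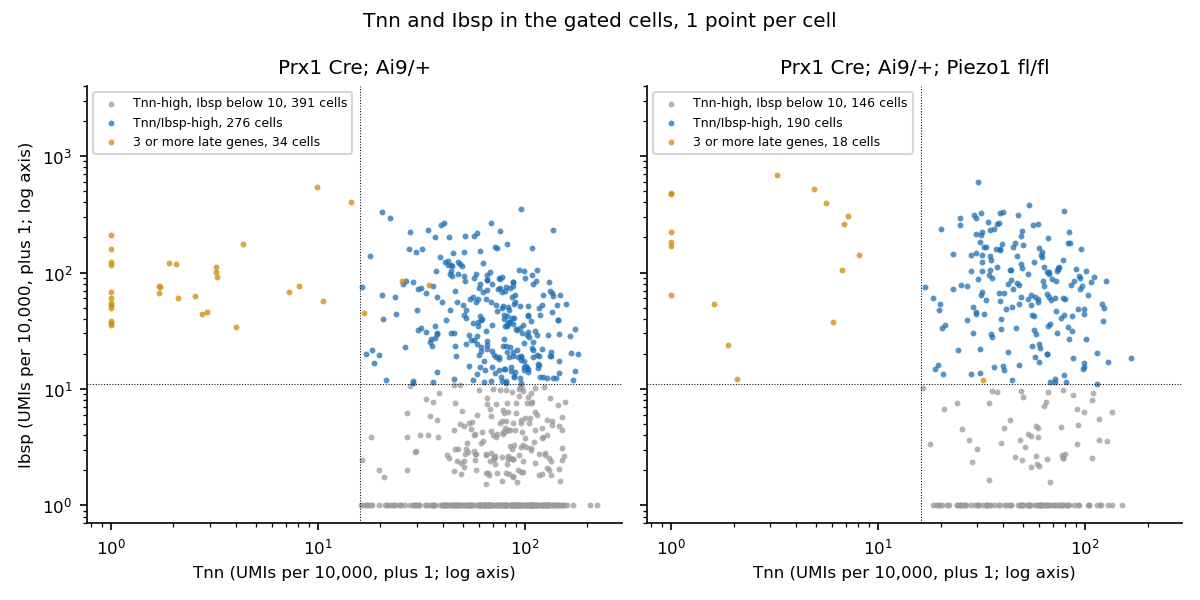
Each point is a cell, with Tnn on the x axis and Ibsp on the y axis, both as UMIs per 10000 UMIs of the cell plus 1 on log axes, and the control library on the left and the Piezo1 fl/fl library on the right. Blue points are the 276 and 190 selected cells, grey points the 391 and 146 Tnn-high cells with Ibsp below 10, ochre points the 34 and 18 cells with a UMI of 3 or more late genes, and dotted lines mark the limits at 15 for Tnn and 10 for Ibsp.

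The label was checked on Sp7 and Alpl, which the selection did not use. Sp7, the zinc-finger factor needed for osteoblast formation, had 257 CPM in the control cells and 201 in the Piezo1 fl/fl cells, against 185 and 160 in Tnn-high cells with low Ibsp and 19.8 and 7.85 in all other cells. Here and below, all other cells are the filtered cells outside the selected cells and outside both groups they are compared with, the Tnn-high cells with low Ibsp and the cells with 3 or more late genes. A UMI of Sp7 was found in 73.2% and 66.8% of the selected cells, against 2.20% and 0.676% of endothelial-like and 2.67% and 1.09% of blood-like cells, which should lack it and which were shallower (medians of 3198.5 to 4354 UMIs). Alpl, the phosphatase that frees phosphate for mineral, reached 839 and 813 CPM, against 605 and 516 in Tnn-high cells with low Ibsp and 67.5 and 30.5 in all other cells. Runx2 was seen in 80.8% and 78.4% of the selected cells. Postn, a matricellular protein of the periosteum, stood at 11184 and 9761 CPM. Markers of the early osteoblast lineage were thus present in both libraries.

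The comparison group nearest to these cells was the Tnn-high cells that met the same Tnn and Lrrc15 or Prss35 criteria but had Ibsp below 10 CP10K, 391 cells in the control library and 146 in the Piezo1 fl/fl one. They will be called low-Ibsp cells. Their median depth, 6337 and 5568 UMIs, was close to that of the selected cells. In each library the UMIs of a group were summed per gene, and a gene was counted as different when the log2 ratio of the summed UMIs as CPM, with 0.5 UMI added, passed 2-fold in both libraries. Of 5270 genes with at least 50 UMIs over the 2 groups in each library, 15 were higher in the selected cells (0.285%) and 36 were lower (0.683%). The 15 include Ibsp, whose direction the selection fixed. With a single library per genotype this is a rule of size and not a test.

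The named genes with the largest ratios on the higher side were Spp1, Ccn5, Hpgd and Mmp13. Osteopontin, Spp1, a phosphorylated glycoprotein of bone matrix, had 1631 CPM in the selected control cells against 58.6 in the low-Ibsp cells, and 4164 against 124 in the Piezo1 fl/fl library. The log2 ratios were 4.80 (4.58 to 5.03) and 5.07 (4.80 to 5.36). Spp1 was not spread evenly, since 21.0% of the control and 46.3% of the Piezo1 fl/fl cells had a UMI of it and 1 cell held 25.5% and 14.9% of its UMIs. A UMI of Spp1 was also found in 11.3% and 17.2% of blood-like cells. Mmp13, collagenase 3, which cuts fibrillar collagen, had 3204 against 322 CPM in the control library and 6091 against 1410 in the other, log2 ratios of 3.31 (3.22 to 3.41) and 2.11 (2.03 to 2.20). Mmp13 was seen in 67.0% and 91.1% of the selected cells, and no cell held more than 5.41% of its UMIs. Both groups of cells therefore overlapped in Mmp13, which 33.5% and 54.1% of the low-Ibsp cells also carried.

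Spp1 and Mmp13 were both higher where Ibsp was high, and the 250 bases before the RefSeq start of each gene (GRCm38.p6) are shown because both hold a match to the core motif of the Runx family. They were picked for that match, since the windows before Serpine2, Timp1, Tnn and a second RefSeq start of Spp1 held none. The match was not confined to these genes. A window before Dmp1, a late gene used in the selection, also held a Runx match, 164 to 159 bases before the start, and another window before Dmp1 held none. Capitals mark matches to the Runx motif TGTGGT, written ACCACA on the other strand, and to the AP-1 motif TGANTCA, and both strands were searched.
Spp1, chr5:104434861-104435110, plus strand: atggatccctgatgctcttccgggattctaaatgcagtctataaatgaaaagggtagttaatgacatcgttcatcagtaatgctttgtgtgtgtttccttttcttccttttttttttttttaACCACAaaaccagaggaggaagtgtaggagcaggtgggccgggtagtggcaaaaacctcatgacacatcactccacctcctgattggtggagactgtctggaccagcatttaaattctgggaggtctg
Mmp13, chr9:7272264-7272513, plus strand: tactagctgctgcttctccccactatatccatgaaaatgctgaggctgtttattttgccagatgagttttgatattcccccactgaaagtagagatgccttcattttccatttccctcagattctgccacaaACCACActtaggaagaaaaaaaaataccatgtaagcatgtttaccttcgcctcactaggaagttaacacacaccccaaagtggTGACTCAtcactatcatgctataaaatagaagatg
The Runx match lies 128 to 123 bases before the start of Spp1 and 118 to 113 bases before that of Mmp13, whose AP-1 match lies 35 to 29 bases before the start. Over 32851 such windows, 14.0% held the Runx motif and 6.75% the AP-1 motif, so a match alone is common. The window before the RefSeq start of Ibsp held neither, but that start lies downstream of the GENCODE start, so part of the window lies within the gene as positioned below. Spp1 (chr5:104435118-104441050) and Ibsp (chr5:104299171-104311469) are neighbours on chromosome 5 with Dmp1 and Mepe, and Mmp13 lies on chromosome 9 (chr9:7272514-7283331). Tnn (chr1:160085029-160153580), Sp7 (chr15:102356606-102367182) and Alpl (chr4:137741733-137796384) lie on the minus strand of other chromosomes, all positions being those of GENCODE vM21 (GRCm38). Mepe had no UMI in the selected cells of either library.

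The remaining higher genes included regulators of proteolysis and signalling. Serpine2, protease nexin-1, an inhibitor of serine proteases, had 559 CPM against 188 in the control library and 1367 against 219 in the Piezo1 fl/fl one, log2 ratios of 1.57 (1.43 to 1.72) and 2.64 (2.43 to 2.86). Timp1, an inhibitor of matrix metalloproteinases, was higher by 1.29 (1.11 to 1.48) and 1.79 (1.58 to 2.02) on the log2 scale. Ccn5, a CCN family matricellular protein, was higher by 2.84 (2.45 to 3.28) and 2.62 (2.30 to 2.98). Hpgd, the enzyme that inactivates prostaglandins, was higher by 2.44 (1.89 to 3.06) and 2.28 (1.67 to 3.00). Hpgd was also seen in 55.2% and 34.1% of blood-like cells, against 21.0% and 33.2% of the selected cells. Lifr, the receptor subunit for leukaemia inhibitory factor, differed by 1.23 and 1.17. Tmem176a and Zfp608 were between 1.13 and 1.43 higher in either library.

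The named genes on the lower side were Chad, Thbs4, Eln, Tnmd, Mfap4, Comp, C1qtnf3, Col8a1, Mfap5 and Col14a1. Chad, chondroadherin, a leucine-rich matrix protein of cartilage and tendon, had 65.7 CPM in the selected control cells against 344 in the low-Ibsp cells, and 55.7 against 619 in the other library, log2 ratios of -2.38 (-2.65 to -2.13) and -3.47 (-3.84 to -3.13). A Chad UMI was found in 29.3% of selected against 28.1% of low-Ibsp cells in the control library, and in 22.1% against 34.2% in the other, so the groups overlapped. Thbs4, thrombospondin-4 of tendon and muscle attachments, stood at 75.7 against 487 and 165 against 782. Tnmd, tenomodulin, a marker of mature tendon cells, stood at 14.6 against 61.6 and 8.57 against 96.9, but 1 cell held 40.6% of its 32 UMIs in the selected control cells. Comp, another tendon and cartilage protein, was lower by -2.19 and -1.87. The elastic-fibre genes Eln, Mfap4 and Mfap5, and Col8a1, Col14a1 and C1qtnf3, were lower by between -1.74 and -3.01 on the log2 scale in either library. Of the 7 tendon markers listed, 5 had enough UMIs, 3 (Tnmd, Comp and Chad) passed 2-fold, and all 5 were lower in both libraries, with a median log2 ratio of -2.06 and -1.87 against -0.06 and -0.07 over all genes. With cells thinned to 2500 UMIs the control median of the list was -0.78. The summed level of the 7 was 1572 against 2875 CPM in the control library and 1685 against 4282 in the Piezo1 fl/fl one. The part of tendon-like cells among the low-Ibsp cells in these differences was not tested. In the plot of both libraries the named genes stand away from the bulk of genes in the same direction. The naming rule set this place, since it took the largest ratios with the same sign in both libraries.

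**Figure D2:**
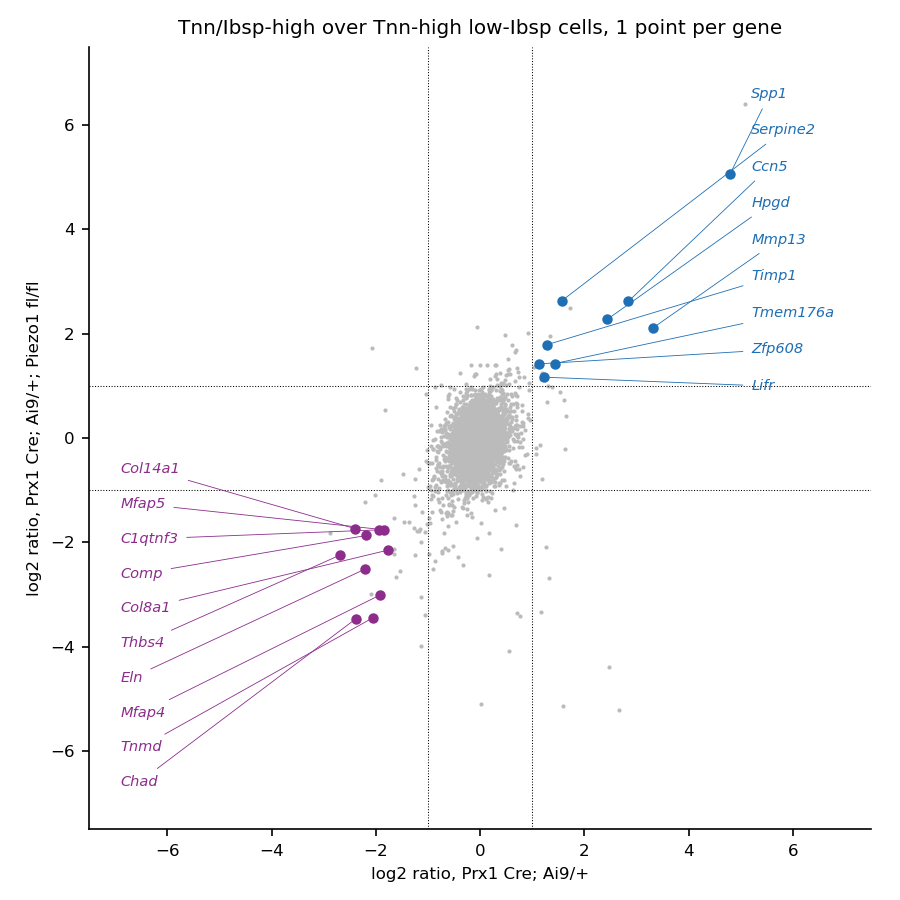
Each point is 1 of 5270 genes, placed by its log2 ratio of the selected cells over low-Ibsp cells in the control library (x axis) and in the Piezo1 fl/fl library (y axis), with dotted lines at 2-fold. Among the labelled genes, Spp1 stands farthest out at 4.80 and 5.07, and Chad and Tnmd lie lowest at -3.47 and -3.45 on the y axis.

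To see how genes varied with Ibsp, all Tnn-high cells were divided by their Ibsp level into 5 bins. In the control library these held 214 cells with no Ibsp UMI, 177 above 0 and below 10 CP10K, 115 at 10 to below 30, 120 at 30 to below 100 and 41 at 100 or more. The Piezo1 fl/fl library held 93, 53, 40, 82 and 68. Spp1 passed through 100, 22.9, 158, 701 and 8635 CPM over the control bins, and through 127, 118, 1261, 2394 and 7103 over the Piezo1 fl/fl bins. Most of its increase thus lay above 30 CP10K of Ibsp in the control cells, whereas in the Piezo1 fl/fl cells it was already raised at 10 to 30 CP10K. Mmp13 stood at 260, 376, 1055, 3558 and 8189 CPM in the control library and at 1735, 877, 3710, 4839 and 8301 in the other. Serpine2 changed little below 30 CP10K in the control cells (194, 183 and 210 CPM) and then reached 489 and 1762.

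The lineage factors varied far less over the same bins. Sp7 was 163, 205, 255, 249 and 286 CPM in the control library and 133, 206, 174, 211 and 201 in the other, so that the top bin exceeded the bin without Ibsp by 0.81 (0.44 to 1.17) and 0.60 (0.17 to 1.04) on the log2 scale. Within the selected cells, from 10 to 30 CP10K up to 100 and more, the Sp7 ratio was 0.17 (-0.20 to 0.52) and 0.20 (-0.32 to 0.77), intervals that span 0. Runx2 was higher over the same range of selected cells by 0.96 (0.68 to 1.24) in the control library and 0.38 (0.01 to 0.78) in the Piezo1 fl/fl one. Alpl was 501 and 455 CPM without Ibsp and 901 and 719 in the top bin. Postn stayed between 8707 and 11878 in the control and between 7335 and 10477 in the Piezo1 fl/fl bins. Aspn, asporin, a small leucine-rich proteoglycan that binds collagen, went the other way, from 13304 to 3696 and from 9145 to 3325. Chad and Thbs4 had dropped by the first bin inside the limit, to 60.1 and 78.9 CPM in the control library.

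**Figure D3:**
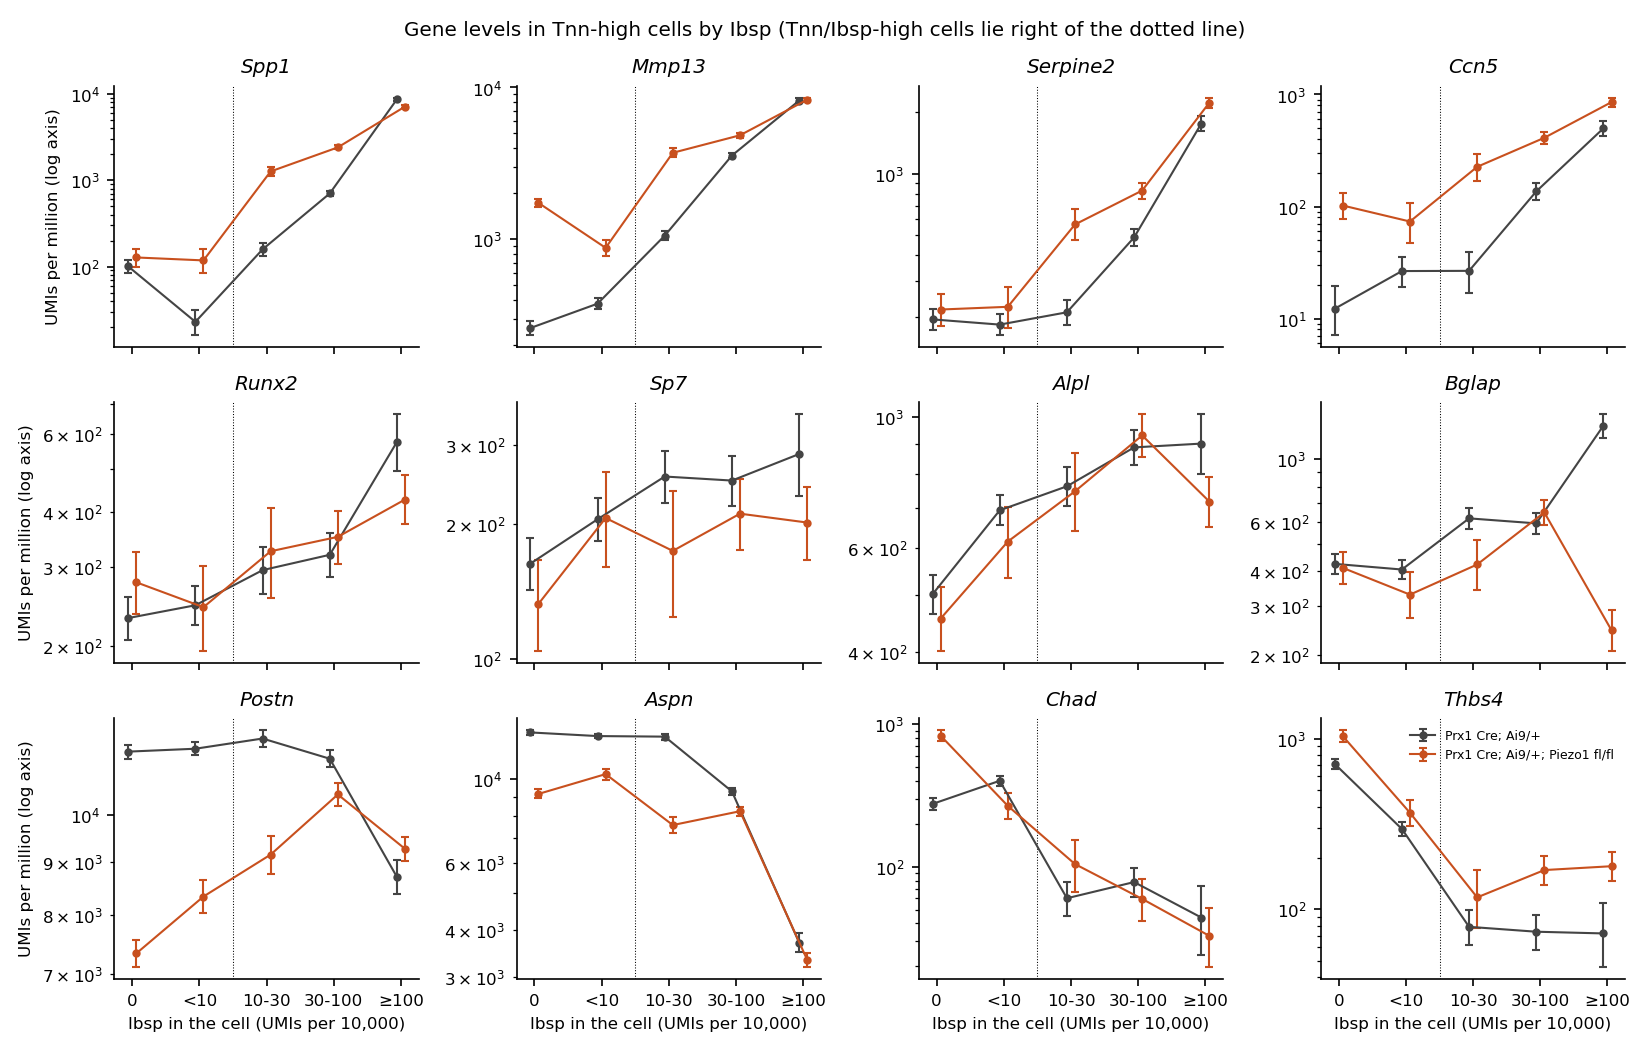
Each panel plots the summed CPM of 1 gene (y axis, log scale) in Tnn-high cells grouped by the Ibsp level of the cell in CP10K (x axis), for the control library in grey and the Piezo1 fl/fl library in orange, and bars are exact 95% Poisson intervals. Spp1, Mmp13, Serpine2 and Ccn5 are higher at the right than at the left in both libraries, though Spp1 and Mmp13 do not rise at every step. Sp7, Runx2 and Alpl change by less than 3-fold, and Aspn, Chad and Thbs4 are lower at the right than at the left.

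The selected cells were not uniform in their late genes. The 7 control cells with 2 late genes had Spp1 at 20379 and Bglap at 4182 CPM, against 1022 and 565 in the 237 cells with none of the 6. The 3 such Piezo1 fl/fl cells had Spp1 at 17068 and Bglap at 650 CPM. A single cell among the 7 control cells held 85.2% of the 128 UMIs of Dmp1 in the selected control cells. That cell also had their highest Spp1 level, 743 CP10K, so 1 cell weighs on the Spp1 value of the 7. Mmp13 and Bglap at a high level were then counted in the same cells. Of the 110 control cells with Mmp13 at 10 CP10K or more, 22 also had Bglap at that level (a share with an interval of 13.0% to 28.7%), against 46 of the 166 others (27.7%, 21.1% to 35.2%). In the Piezo1 fl/fl library the numbers were 14 of 137 (10.2%, 5.70 to 16.6) and 10 of 53 (18.9%, 9.44 to 32.0). Bglap was thus less frequent among cells with Mmp13 in both libraries, and this difference was not tested.

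Genes were then described by function, and each count of genes past 2-fold stands against 0.285% higher and 0.683% lower over all genes, and each median against -0.06 and -0.07, so that few or no such genes in a short list is what all genes show too. Of 14 transcription factors listed, 11 had enough UMIs and 0 passed 2-fold in both libraries, with 5 higher and 4 lower in both. Runx2 was higher by 0.54 (0.39 to 0.69) and 0.51 (0.29 to 0.74), and Sp7 by 0.47 (0.30 to 0.64) and 0.32 (0.03 to 0.62). At an equal depth of 2500 UMIs per cell, however, a UMI of Sp7 was found in 34.7% and 39.6% of the selected and in 35.8% and 32.6% of the low-Ibsp cells. Dlx5, a homeodomain factor, was lower by -0.42 and -0.51. Of 16 bone matrix proteins, 12 were compared, 1 (Spp1) passed 2-fold and 7 were higher in both libraries, and the median log2 ratio was 0.15 and 0.21. Col1a1, the alpha 1 chain of type I collagen, had 102426 CPM in the selected control cells and 88693 in the low-Ibsp cells, and 90428 and 76705 in the Piezo1 fl/fl library. Osteocalcin, Bglap, was higher by 0.77 (0.66 to 0.88) and 0.22 (0.03 to 0.42), and the near-identical copy Bglap2 by 0.69 and 0.35, but reads may be divided between these copies. The 18 genes of collagen secretion and crosslinking, all compared, gave 0 beyond 2-fold and medians of -0.03 and 0.17.

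Of 12 hormone and cytokine receptors, 10 were compared, 1 (Lifr) passed 2-fold in both libraries, 6 were higher and 2 lower in both, and the medians were 0.17 and 0.19. Of 8 genes of osteoclast coupling, 6 were compared, 0 passed 2-fold, 4 were higher and 1 lower in both, and the medians were 0.28 and 0.49. Pth1r, the receptor of parathyroid hormone, stood at 206 against 127 and 266 against 166 CPM, log2 ratios of 0.70 (0.50 to 0.90) and 0.68 (0.40 to 0.96). Vdr, the vitamin D receptor, was higher by 0.74 (0.48 to 1.00) and 1.17 (0.67 to 1.72). Tnfsf11, RANK ligand, which drives osteoclast formation, was higher by 0.38 (0.04 to 0.71) and 1.25 (0.79 to 1.76). Of the 12 enzymes and transporters of mineralization 8 were compared and 2 passed 2-fold, both lower: the phosphate transporter Slc20a2 (-1.02 and -1.65) and matrix Gla protein, Mgp, an inhibitor of calcification (-1.36 and -1.61). Phospho1, a phosphatase of matrix vesicles, had 0 UMIs. Of 11 cambium genes that the selection did not use, 10 had enough UMIs and Mmp13 alone passed 2-fold in both libraries. Of the 12 fibrous layer genes, 9 were compared and 3 (Thbs4, Col8a1 and Angptl7) were lower beyond 2-fold against 0.683% of all genes, with medians of -0.61 and -0.93. The 12 cell cycle genes summed to 104 and 101 CPM in the selected cells, against 157 and 148 in the low-Ibsp cells. Pcna, a replication clamp and the 1 of them with enough UMIs, had log2 ratios of 0.04 and 0.04, and Mki67, a marker of dividing cells, had 1 and 0 UMIs in the selected cells.

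Cells with a UMI of 3 or more late genes, 34 in the control library and 18 in the Piezo1 fl/fl one, were the second comparison. They were deeper (medians of 8764 and 9064 UMIs), and Col1a1, Col1a2 and Sparc took 33.5% and 31.6% of their UMIs against 21.5% and 19.2% in the selected cells, and the median gene was shifted by 0.22 on the log2 scale in both libraries. Of 4001 genes compared, 348 were higher in the selected cells (8.7%) and 75 were lower (1.87%), and 256 and 92 after scaling to the median gene. Of the cambium genes that the selection did not use, 10 were compared and 5 were higher beyond 2-fold in both libraries, with medians of 1.91 and 1.53. The dissociation response genes moved with this comparison, since the 11 summed to 10883 and 10251 CPM in the selected and 1793 and 5257 in the late-gene cells, 5 of 11 were higher beyond 2-fold, and their medians were 2.54 and 0.85. Their part in the differences was not tested. Aspn had 9985 CPM against 138 in the control library, a log2 ratio of 6.17 (5.80 to 6.59), and gave 8520 UMIs against 9 in the Piezo1 fl/fl library. Ptn, the growth factor pleiotrophin, was higher by 5.89 (5.08 to 7.03) and 5.95 (4.41 to 9.32). Angptl2 and Itm2a were higher by between 4.21 and 4.87, and Edil3 and Pamr1, which had 7 and 1 and 3 and 1 UMIs in the late-gene cells, by 4.25 (3.30 to 5.67) and 5.48 (3.58 to 11.37) and by 4.66 (3.32 to 7.16) and 4.89 (2.98 to 10.78). Col12a1, a collagen of the fibril surface, was higher by 4.97 and 3.45, and Postn by 4.52 and 3.24. Ptgs2, the inducible cyclooxygenase, gave 291 and 181 UMIs in the selected cells and 1 and 0 in the late-gene cells. For such genes the small number of late-gene cells limits the value.

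Of 13 bone matrix genes compared, 4 were lower beyond 2-fold in both libraries and 1 was higher, and of 8 mineralization genes 3 were lower. Bglap had 707 against 14644 CPM in the control library and 443 against 7481 in the other, log2 ratios of -4.37 (-4.45 to -4.29) and -4.08 (-4.21 to -3.94). Col11a2, a fibrillar collagen chain, was at 12.3 against 3499 and 17.1 against 1759. Bmp3, an antagonist of osteogenic BMP signalling, was lower by -5.83 and -6.37, Smpd3, the sphingomyelinase needed for mineralization, by -7.31 and -5.58, and Sgms2, a sphingomyelin synthase of bone, by -4.51 and -4.39. The osteoclast regulators stood in opposite order. Tnfsf11 was higher in the selected cells by 4.12 (2.20 to 10.01) and 1.75 (0.77 to 3.18), with 1 and 7 UMIs in the late-gene cells, whereas Tnfrsf11b, osteoprotegerin, its decoy receptor, was lower by -5.78 (-7.03 to -4.87) and -4.24 (-5.19 to -3.41). Sp7 differed by -0.60 and -0.66 and Runx2 by 0.07 (-0.19 to 0.36) and 0.56 (0.15 to 1.01), so neither factor separated these groups as the matrix genes did. Dlx3 and Mef2c were lower in the selected cells by between -2.49 and -4.31. Mmp13 had no common direction, with 1.79 in the control library and -0.54 in the Piezo1 fl/fl one. The map of levels sets the 3 groups of cells beside each other.

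**Figure D4:**
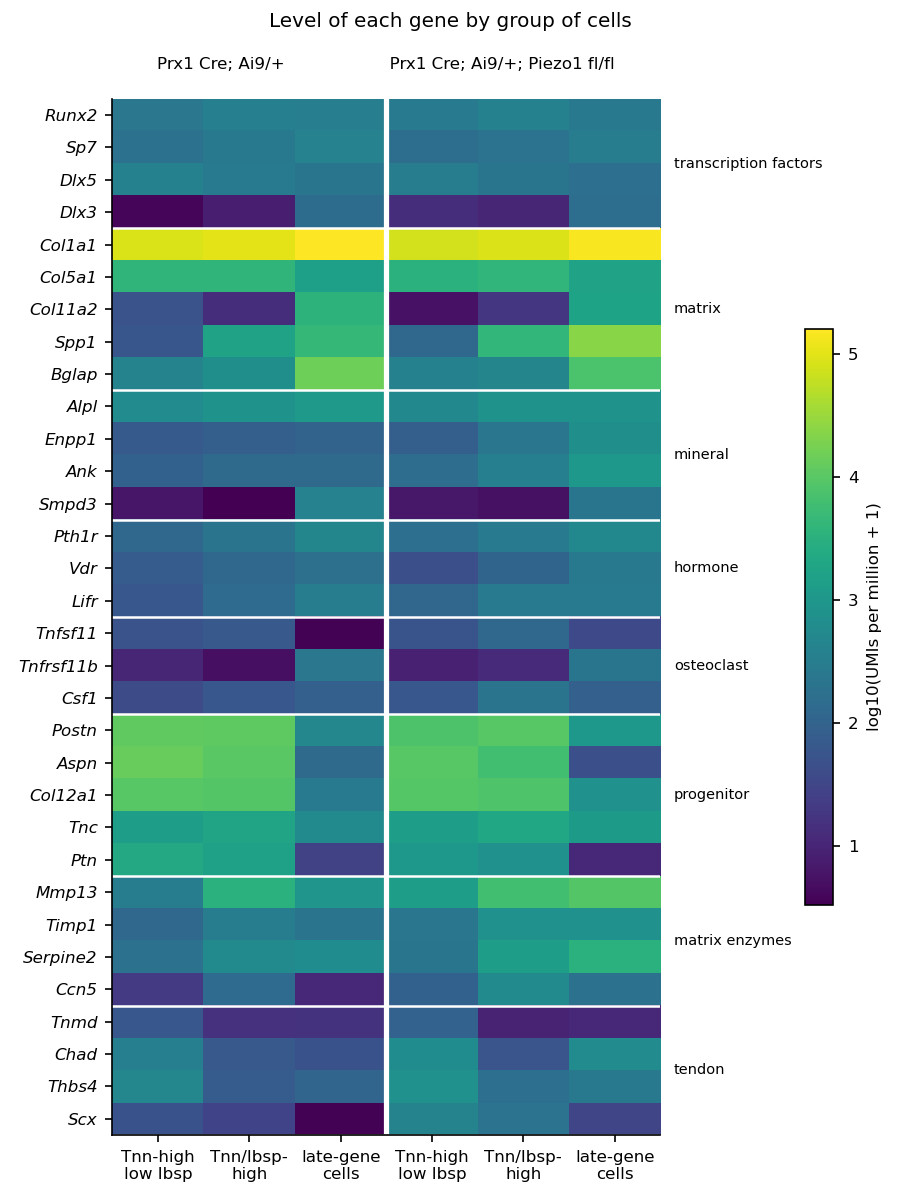
Colour gives the level of each gene as log10 of CPM plus 1, for low-Ibsp cells, the selected Tnn/Ibsp-high cells and late-gene cells of the control library (left) and the Piezo1 fl/fl library (right), with genes grouped by role. Runx2, Sp7 and Alpl are alike in colour over the 3 groups, Bglap, Col11a2, Smpd3 and Tnfrsf11b are brightest in late-gene cells, and Postn, Aspn, Col12a1 and Ptn are bright in the 2 Tnn-high groups.

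The selection left out 100 control and 99 Piezo1 fl/fl cells with Ibsp at 10 CP10K or more and fewer than 3 late genes. Of these, 62 and 75 had Tnn below 15 CP10K, and 38 and 24 had enough Tnn but no UMI of Lrrc15 or Prss35. The former had Spp1 at 17691 and 17316, Mmp13 at 9515 and 6580, Sp7 at 221 and 157 and Postn at 2018 and 1757 CPM. Their Chad level was 5100 and 2381 CPM, against 65.7 and 55.7 in the selected cells. Spp1 and Mmp13 were thus higher in these Ibsp-positive cells with Tnn below 15 CP10K than in the selected cells, and do not set the selected cells apart. For Mmp13 in the Piezo1 fl/fl library the values were close, 6580 against 6091 CPM. The groups were not matched on Ibsp, which stood at 14906 and 13651.5 CPM in these cells against 5870 and 11333 in the selected cells. The 38 and 24 cells without a UMI of Lrrc15 or Prss35 were shallower, with medians of 3645.5 and 3385 against 6635 and 6242 UMIs. They had Spp1 at 3999 and 10757 CPM, against 1631 and 4164 in the selected cells, and Mmp13 at 8499 and 5283. The part of depth in leaving them out was not tested.

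The selected cells made up 6.20% of filtered cells in the control library (5.51 to 6.94) and 3.70% in the Piezo1 fl/fl library (3.20 to 4.25), a ratio of 0.597 (0.493 to 0.720). The low-Ibsp cells made up 8.78% (7.96 to 9.65) and 2.84% (2.40 to 3.33), a ratio of 0.324 (0.266 to 0.392), so that the selected cells were 41.4% (37.6 to 45.2) of Tnn-high cells in the control library and 56.5% (51.1 to 61.9) in the Piezo1 fl/fl one. Cells at 100 CP10K of Ibsp or more were 6.15% of Tnn-high cells in the control library and 20.2% in the Piezo1 fl/fl one. Tnn itself was lower in the Piezo1 fl/fl library, by -0.50 in the selected, -0.46 in the low-Ibsp and -1.27 on the log2 scale in all other cells, and it entered the selection. Without any Tnn, Lrrc15 or Prss35 criterion, an alternative chosen after the data were seen, the shares were 8.44% and 5.62%. Genotype cannot be told apart from the library, the sort or the digestion.

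Between the selected cells of the libraries, 114 of 6564 genes with 50 or more UMIs were over 2-fold higher in the Piezo1 fl/fl cells (1.74%) and 98 were over 2-fold lower (1.49%). Among the higher genes, Ltbp2, a latent TGF-beta binding protein of elastic fibres, had 148 CPM against 25.5, a log2 ratio of 2.52 (2.10 to 2.99), with 1.43 in the low-Ibsp and -0.66 in all other cells. Ccn5 stood at 565 against 144, a ratio of 1.97 (1.78 to 2.16), with 2.19 in the low-Ibsp and 0.04 in all other cells. Csf1, macrophage colony-stimulating factor, which osteoclast precursors need, stood at 208 against 60.2, a ratio of 1.78 (1.49 to 2.09), with 0.61 in the low-Ibsp and no difference to 2 decimals in all other cells. Spry1, an inhibitor of growth factor signalling, Cyp1b1 and Cxcl1 were also higher, by 1.86, 2.05 and 1.85. Cilp was higher by 1.76, with 38.2% of its UMIs in 1 cell. Scx, the tendon transcription factor scleraxis, showed the largest ratio of the named genes, 2.85 (2.46 to 3.28), but it was also 3.06 in the low-Ibsp and 2.65 in all other cells. In endothelial-like cells Scx gave 0 UMIs in the control library and 9 in the Piezo1 fl/fl one, and in blood-like cells 0 and 32, and the part of this library-wide difference in the ratio was not tested.

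Among the lower genes, Penk, the opioid precursor proenkephalin, had 10.7 CPM in the Piezo1 fl/fl and 121 in the control cells, a log2 ratio of -3.45 (-4.35 to -2.75), with -1.36 in the low-Ibsp and 0.19 in all other cells. Aldh1a3, a retinoic acid synthesizing enzyme, was lower by -2.30 (-3.08 to -1.65), Pde4b, a cyclic AMP phosphodiesterase, by -1.96 (-2.53 to -1.47), and Crispld2 by -1.60 (-1.85 to -1.36) with -0.12 (-0.27 to 0.02) in the low-Ibsp cells. Angptl7 and Slc17a8 were lower in all 3 groups. Lyz2 and Sparcl1 were lower by -1.57 and -1.46, but 1 control cell held 34.7% and 53.4% of their UMIs. The lineage genes differed less. Sp7 was lower by -0.36 (-0.57 to -0.15), Runx2 differed by 0.12 (-0.04 to 0.29), Alpl by -0.05 (-0.15 to 0.06) and Bglap by -0.67 (-0.81 to -0.54).

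Of the genes higher in the selected than in the low-Ibsp cells, some were also higher in the Piezo1 fl/fl cells, whereas Sp7, Alpl, Runx2 and Bglap, above, were not past 2-fold or were lower. Spp1 was higher by 1.35 (1.29 to 1.41), Serpine2 by 1.29 (1.19 to 1.39), Timp1 by 1.32 (1.18 to 1.46) and Mmp13 by 0.93 (0.88 to 0.97), and 72.1% of Piezo1 fl/fl cells had Mmp13 at 10 CP10K or more against 39.9% of control cells. Mmp13 differed more where Ibsp was low, by 2.13 (2.01 to 2.25) in the low-Ibsp cells and by 2.74 (2.56 to 2.92) in Tnn-high cells with no Ibsp UMI. The difference in Spp1 was 3.00 (2.70 to 3.30) among cells at 10 to below 30 CP10K of Ibsp, 1.77 (1.64 to 1.91) at 30 to below 100 and -0.28 (-0.35 to -0.21) at 100 and more. For Mmp13 it was 1.81 (1.68 to 1.95), 0.44 (0.37 to 0.52) and 0.02 (-0.05 to 0.09), and for Serpine2 1.43, 0.76 and 0.34. For these 3 genes the libraries thus differed most in the selected cells with the least Ibsp. The control Spp1 values rest in part on the 1 cell at 743 CP10K described above. The part of that cell in the Spp1 ratios, including the sign of the ratio at 100 and more, was not tested. Enpp1, which makes the mineral inhibitor pyrophosphate, and Ank, which exports it, were higher by 1.41 (1.15 to 1.68) and 1.40 (1.19 to 1.61), though 1 cell held 24.9% of the control and 28.2% of the Piezo1 fl/fl UMIs of Ank, and 1 control cell 20.2% of those of Enpp1. Bglap in the top bin was 1319 CPM in the control library and 246 in the Piezo1 fl/fl one, a ratio of -2.42 (-2.71 to -2.15). The 7 control cells with 2 late genes held 292 of the 1550 Bglap UMIs of all selected control cells. The 3 such Piezo1 fl/fl cells held 27 of 621. The part of these few cells in the Bglap ratio was not tested.

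**Figure D5:**
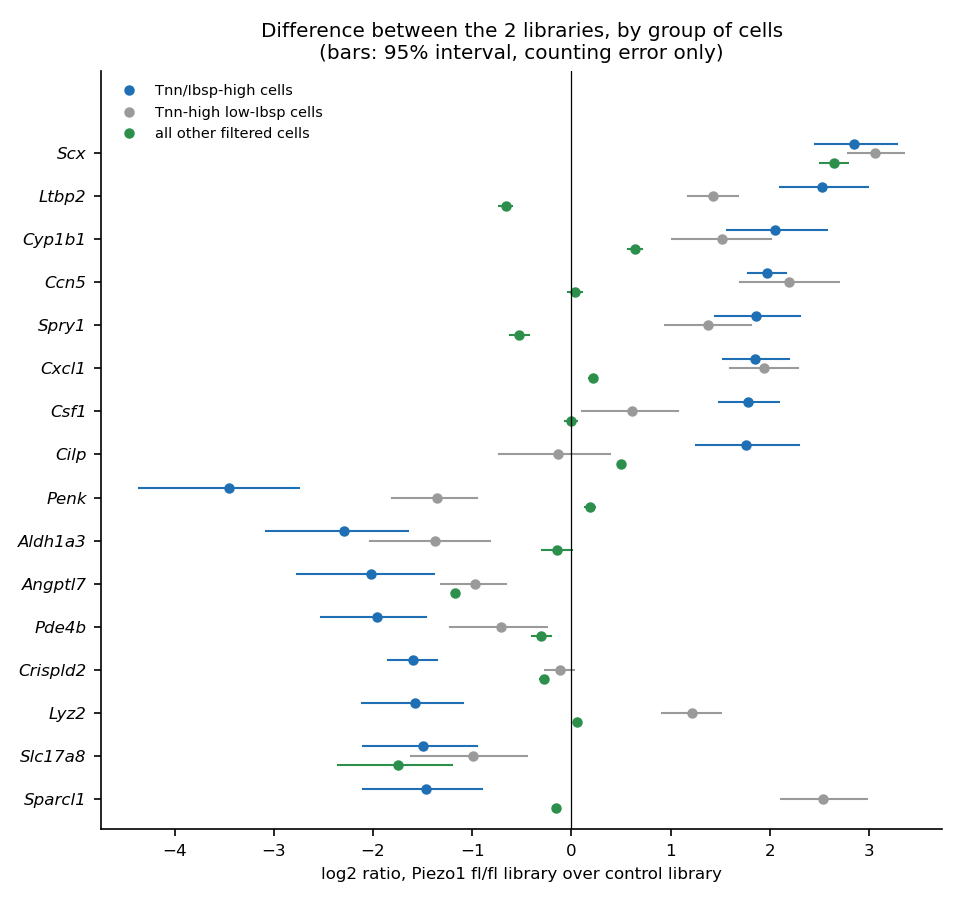
Points give the log2 ratio of the Piezo1 fl/fl over the control library (x axis) for the 16 named genes (y axis) in the selected cells (blue), the low-Ibsp cells (grey) and all other cells (green), and bars are exact 95% intervals for counting error. Scx lies between 2.65 and 3.06 in all 3 groups, whereas Ccn5 and Csf1 are near 0 in all other cells.

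Markers of other cell types were summed in the selected cells. The 6 endothelial markers summed to 10.5 and 34.3 CPM, with 1 and 0 of the 6 at 0 UMIs, against 264 and 151 in all other cells. Their 48 UMIs in the selected Piezo1 fl/fl cells lay in 10 cells, of which 1 reached 51.1 CP10K. The highest selected control cell had 3.65 CP10K. The 6 blood markers summed to 36.5 and 24.3, with none at 0 UMIs, against 544 and 633. The 6 mural markers summed to 323 and 143 CPM, mostly Acta2, 24.8% of whose control UMIs lay in 1 cell. The 7 fibroblast markers summed to 455 and 410 against 5175 and 5964 in all other cells. The 6 chondrocyte markers summed to 419 and 487, against 593 and 191 in all other cells and 1465 and 582 in the low-Ibsp cells, so that they were higher than in all other cells in the Piezo1 fl/fl library. Most of this was Acan, aggrecan, at 333 and 403 CPM, whereas Col2a1 was at 8.67 and 13.6 and Cnmd at 0 UMIs. The 6 adipogenic marrow stroma markers summed to 482 and 301, against 1342 and 900.3 in all other cells. S100a8, a neutrophil gene named after its values were seen, was at 2.28 and 18.6 CPM in the selected and 30.2 and 766 in all other cells, higher in the Piezo1 fl/fl library in both. The 11 immediate early and heat-shock genes of the dissociation response stood at 11375 and 12935 CPM in the low-Ibsp cells, near the values of the selected cells given above, and at 15234 and 16352 in all other cells. The part of these genes in the differences above was not tested.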

How the data were processed

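Per the labels and the study's methods, Ai9-positive periosteal cells were taken from agarose-capped femurs and tibias by the later of 3 collagenase, dispase and DNase digestions (the first was discarded), freed of red cells, sorted, thawed and captured on the BD Rhapsody system for 3' whole-transcriptome libraries. The submitters' processing notes name fastp, UMI-tools, STAR and Seurat 4.0.3, and the genome build is not given in the sources used here. The authors deposited 1 matrix of raw UMI counts per library, over 31253 features, of which 31107 gene identifiers matched GENCODE vM21 (GRCm38), the source of the gene positions.

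Cells with 1000 to 5000 genes and mitochondrial UMIs below 25% were kept, the libraries apart, and no doublets were removed; removing those called by Scrublet (in scanpy 1.11.5) was an alternative. The counts of the cells of a group were summed, divided by their total and compared as log2 ratios with 0.5 UMI added. Intervals were exact Poisson, Clopper-Pearson or conditional binomial at 95%, computed with scipy 1.17.1. Depth was equalized by drawing 2500 UMIs per cell, leaving out shallower cells. Named genes were the 10 in each direction (8 between libraries) with the largest ratio in the library where it was smaller. They had 50 or more UMIs over the groups and 50 or more CPM in the higher group. Between libraries they had 100 or more UMIs on the higher side. Mitochondrial, ribosomal, haemoglobin, Y-linked and selection genes, Xist and Tsix were left out, and other X-linked genes were kept. Listed genes with 50 or more UMIs in the selected cells could also be named, and other genes are given as seen afterwards or as counts. Endothelial-like cells had UMIs of 3 or more of 6 endothelial markers, and blood-like cells had Ptprc and 2 or more others. Of 221 genes in 20 lists, 1 was not found by its symbol. The cells and lists were chosen with earlier results of these data known. The ratio and interval steps were checked on simulated Poisson counts. Such counts lack the uneven spread over cells seen in some genes above, so the check does not cover it. Alternatives changed the Ibsp limit, the cell filters, the scaling, the UMIs added and the gene filter. With 1 library per genotype no test was run. Spp1 and Runx2 overlap other annotated genes, and the strand setting of the counting is not given in the sources used here. Some genes that met the naming rule are not reported here.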

Additional observations from a re-analysis of the deposited data

Results flagged for a closer look

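Of 6283 genes compared, 10 had ratios of the Piezo1 fl/fl over the control library past 2-fold in opposite directions in the selected cells and in the low-Ibsp cells, and these differences were not tested. They included genes of tissue macrophages. The log2 ratios were -3.96 in the selected and 3.92 in the low-Ibsp cells for F13a1, -3.70 and 3.17 for Lyve1, -3.15 and 2.60 for Pf4, -2.19 and 2.32 for C1qb, -2.12 and 2.51 for C1qc, and -2.11 and 2.09 for Csf1r. In the selected control cells 1 cell held 72.9% of the 85 UMIs of F13a1 and 80.2% of the 91 UMIs of Lyve1, and in the Piezo1 fl/fl low-Ibsp cells 1 cell held 74.7% and 100% of theirs. For Pf4, C1qb, C1qc and Csf1r, 1 Piezo1 fl/fl low-Ibsp cell held 84.8%, 88.9%, 82.3% and 84.3% of the UMIs. On the side of the selected control cells 1 cell held 46.8%, 39.3%, 40.8% and 30% of them. For Lyz2 the ratios were -1.57 and 1.22, for Sparcl1 -1.46 and 2.53, and for Ccl2 -1.14 and 2.20, with 34.7%, 53.4% and 68.3% of the UMIs of the selected control cells in 1 cell. In the Piezo1 fl/fl low-Ibsp cells 1 cell held 78.5%, 35.2% and 36.2% of the UMIs of these 3 genes. Fabp4 went the other way, with 2.72 and -1.08, and 1 Piezo1 fl/fl cell held 85.5% of its 69 UMIs.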

How the results depend on the processing

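The ratio of the shares of selected cells kept its size within its interval under all 8 alternatives. An Ibsp limit of 5 CP10K moved the control share to 7.09%, a limit of 20 moved the shares to 4.53% and 3.15%, wider limits on the genes per cell moved the Piezo1 fl/fl share to 3.11%, and dropping the Tnn, Lrrc15 and Prss35 criteria, chosen after the data were seen, gave 8.44% and 5.62%. With cells thinned to 2500 UMIs, which leaves fewer genes to compare, 8 genes were higher and 21 lower than in low-Ibsp cells, 147 and 24 against late-gene cells, and 60 and 36 between libraries. With 5 UMIs added, 162 genes were higher than in late-gene cells and 60 lower between libraries. At 20 or more UMIs per gene, 30 genes were higher than in low-Ibsp cells, 551 higher and 138 lower than in late-gene cells, and 260 and 304 between libraries. At 200 or more, 17 were lower than in low-Ibsp cells, 132 higher and 23 lower than in late-gene cells, and 36 and 22 between libraries. Of 360 recomputed ratios of named genes between groups of cells, 354 stayed past 2-fold in the same direction and 6 dropped below it. Of 144 between libraries, 139 did, 4 dropped below and Sparcl1 reversed to 0.10 in thinned cells. No paired analysis was possible because each genotype has 1 library. The single library per genotype, the 18 to 34 late-gene cells and low UMI counts limit the precision, and Bglap may share reads with near-identical copies.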

Other observations

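Signalling and mechanosensing genes, from lists not described above, were compared between the selected and the low-Ibsp cells, where 0.285% of all genes were higher and 0.683% lower beyond 2-fold. Of 23 Wnt and BMP signalling genes 11 were compared and 0 passed 2-fold in both libraries, with 2 higher and 5 lower in both and medians of -0.05 and -0.25. Among them, Bmpr1a, a BMP receptor, had log2 ratios of -0.31 (-0.52 to -0.12) and -0.25 (-0.56 to 0.06). Wnt5a, a non-canonical Wnt ligand listed above with osteoclast coupling and not counted here, had -0.13 (-0.32 to 0.06) and -0.38 (-0.76 to 0.01). Of 12 mechanosensing genes 7 were compared and 0 passed 2-fold, with 2 higher and 5 lower in both libraries. Ccn2, a target of the Hippo pathway, stood at 538 against 926 CPM in the control and 674 against 1568 in the Piezo1 fl/fl library, and Gja1, connexin 43, which couples bone cells through gap junctions, at 2441 against 1603 and 1650 against 1244. Piezo2 gave 7 and 1 UMIs in the selected cells.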
